A study of Drosophila melanogaster with 2 samples.

Results

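The cytosolic ribosome of Drosophila melanogaster is built from a large and a small subunit, and its proteins are encoded by genes named RpL and RpS. Of 13945 protein-coding genes on the main chromosome arms and the X chromosome, 92 have a symbol that starts with RpL (54 genes of the large subunit, the acidic stalk proteins included) or RpS (38 genes of the small subunit), and these 92 are described here. The subunit was read from the symbol alone, also for symbols that end in -like, whether or not the product is part of the finished ribosome. The 92 genes were taken by name, with no limit on a measured value. Earlier results of these data were known when the set was chosen. Binding near them was measured by chromatin immunoprecipitation with sequencing (ChIP-seq), in which the DNA bound by a protein is pulled down with an antibody and sequenced. The protein was CG42726, fused to eGFP in a transgenic fly line and precipitated with an antibody against GFP, in 2 biological replicates of whole embryos collected between 0 and 24 h of age. All samples carry the fusion protein, and there is 1 group, so the results compare genes within it. Whole embryos mix all tissues and stages of that day, and a region cannot be assigned to a cell type. The labels do not say what drives the fusion protein or whether the native gene is intact.

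Ribosomal protein genes are among the most strongly transcribed genes of a dividing cell, and their products are needed in matched amounts. In flies, most of their transcripts begin within a run of pyrimidines, the polypyrimidine initiator (also called the TCT motif), which stands in for the usual initiator at these promoters. Another sequence of many housekeeping promoters in flies is the DNA replication-related element (DRE), which is bound by the factor DREF, and motif 1 is a further sequence of such promoters, of which the core was searched.

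The 9 stretches printed here show where these sequences lie. Each runs from 100 bases before an annotated start to the 20 bases from the start on, in dm6, 5' to 3' on the gene's strand, read from the RefSeq genome. Capitals mark the initiator, the DRE (TATCGATA), the motif 1 core (GGTCACAC), the E-box CAGCTG, the letters TATAAA and runs of A. All but the initiator were marked on either strand. The initiator is CTTT with a C or T on each side, where the C of CTTT lies within 10 bases of a start. For the capitals only the annotated start of the printed stretch was used, and RpL7 has an initiator at another of its starts. The first 5 are promoters with a DRE near the summit and an initiator at the start, RpL32 has the highest signal of the 92 genes, RpL7 and RpLP1 carry the motif 1 core, and RpL10Aa is the paralogue of RpL10Ab without a summit. They lie at chr3L:11822751-11822870, plus strand (RpL10Ab), chrX:7901312-7901431, minus strand (RpS6), chr3R:11216268-11216387, minus strand (RpS25), chr3R:25685032-25685151, minus strand (RpL27), chrX:15139348-15139467, minus strand (RpL37-1), chr3R:30046142-30046261, minus strand (RpL32), chr2L:10200904-10201023, plus strand (RpL7), chr2L:419852-419971, plus strand (RpLP1) and chr3R:15037266-15037385, plus strand (RpL10Aa).
RpL10Ab: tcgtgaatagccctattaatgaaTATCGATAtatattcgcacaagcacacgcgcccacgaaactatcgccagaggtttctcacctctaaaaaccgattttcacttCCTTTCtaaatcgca
RpS6: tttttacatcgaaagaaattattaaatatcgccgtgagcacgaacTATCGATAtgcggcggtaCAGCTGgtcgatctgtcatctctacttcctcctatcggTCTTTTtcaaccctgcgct
RpS25: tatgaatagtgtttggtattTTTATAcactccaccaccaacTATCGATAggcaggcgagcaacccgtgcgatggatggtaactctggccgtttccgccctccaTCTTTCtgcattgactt
RpL27: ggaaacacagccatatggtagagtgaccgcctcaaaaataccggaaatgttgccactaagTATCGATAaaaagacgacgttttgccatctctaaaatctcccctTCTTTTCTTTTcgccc
RpL37-1: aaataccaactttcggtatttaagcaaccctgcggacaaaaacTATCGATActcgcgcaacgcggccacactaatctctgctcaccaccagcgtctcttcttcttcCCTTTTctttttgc
RpL32: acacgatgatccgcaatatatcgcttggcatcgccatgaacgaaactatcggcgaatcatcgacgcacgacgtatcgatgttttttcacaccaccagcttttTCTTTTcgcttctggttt
RpL7: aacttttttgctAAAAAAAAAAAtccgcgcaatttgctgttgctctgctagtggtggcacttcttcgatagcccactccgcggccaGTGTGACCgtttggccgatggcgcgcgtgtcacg
RpLP1: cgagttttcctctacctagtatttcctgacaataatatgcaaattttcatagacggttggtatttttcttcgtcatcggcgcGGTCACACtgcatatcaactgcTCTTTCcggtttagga
RpL10Aa: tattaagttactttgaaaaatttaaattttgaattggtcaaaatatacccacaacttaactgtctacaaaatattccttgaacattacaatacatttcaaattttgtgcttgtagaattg

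A summit is the position within a called region at which the authors' caller placed the highest enrichment. A gene was counted if at least 1 of its annotated starts had a summit no more than 1 kb away. The main list holds the 2752 regions that ranked alike in the 2 biological replicates by the irreproducible discovery rate (IDR), a measure of how well the rank of a region repeats. The pooled list holds 4044 regions from the reads of both replicates, and the lists of replicate 1 and replicate 2 hold 2803 and 1629 regions. The read depth behind these lists is unknown, because the files hold no counts.

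In the main list, 47 of the 92 ribosomal protein genes (51.1%) had such a summit, against 2866 of 13945 protein-coding genes (20.6%). In the pooled list the count was 60 of 92 (65.2%), against 27.3% of all protein-coding genes. Replicate 1 gave 52 of 92 (56.5%), against 21.9% of all protein-coding genes. Replicate 2 gave 41 of 92 (44.6%), against 12.7% of all protein-coding genes. The share of ribosomal protein genes was thus above the share of all genes in each of the 4 lists, while the 4 lists rest on the same 2 libraries. With 1 group and no counts, no test was made, and these shares are descriptions.

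The subunits had similar shares in the main list. A summit lay near 27 of 54 genes of the large subunit (50%) and near 20 of 38 of the small subunit (52.6%). In the pooled list the counts were 34 of 54 (63.0%) and 26 of 38 (68.4%), and in replicate 1 they were 28 of 54 (51.9%) and 24 of 38 (63.2%). In replicate 2, the list with the fewest regions, they were 21 of 54 (38.9%) and 20 of 38 (52.6%). The share was higher for the small subunit in all 4 lists, and no test of that difference was made. At a -log10 IDR above 3, a stricter limit on the main list, the counts were 13 of 54 (24.1%) and 14 of 38 (36.8%).

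Both replicate lists held a summit near 36 of the 92 genes. Another 16 genes had one in replicate 1 only and 5 in replicate 2 only. All 4 lists held a summit near 34 genes, of which 16 were of the large and 18 of the small subunit. A gene counted in several lists can rest on different regions in them. At least 1 of the 4 lists held a summit near 64 genes, 37 of the large and 27 of the small subunit. These overlaps were not counted over all protein-coding genes, so they have no background here. Replicate 1 had more regions than replicate 2, and 21.9% and 12.7% of all protein-coding genes had a summit in the respective lists.

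**Figure D1:**
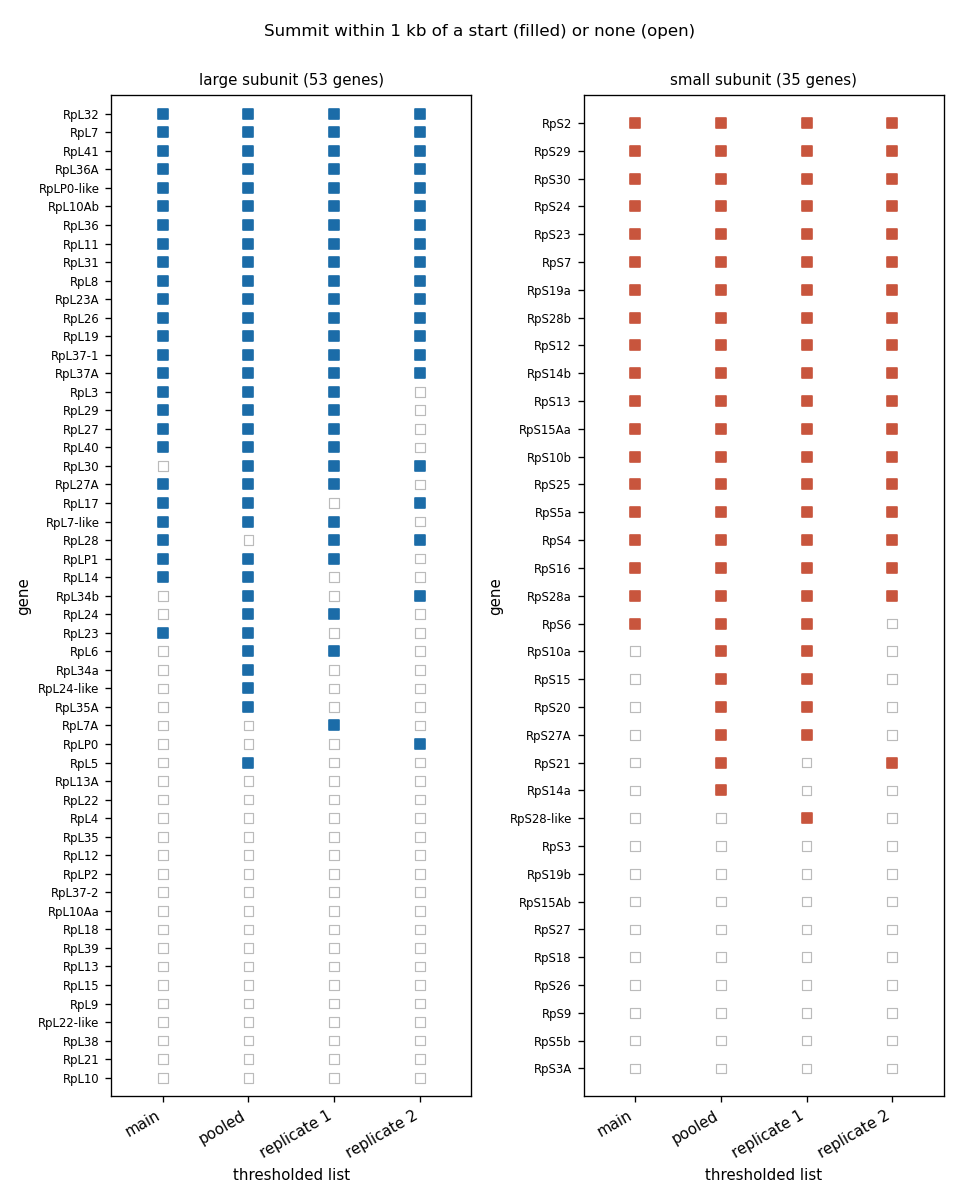
Each row is a gene and each column a thresholded list, with 53 genes of the large subunit (blue) on the left and 35 of the small subunit (red) on the right. A filled square is a summit within 1 kb of a start. The upper 15 rows on the left and the upper 18 on the right are filled in all 4 lists, and 17 and 9 rows at the foot are open in all.

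The signal of a region is the authors' own value, whose scale the files do not state, and it is compared here only within a list. Over the 47 genes with a summit in the main list, the signal of the strongest region was 60.2 at the lowest, 139 at the median and 593 at the highest. The median over the 2866 protein-coding genes with a summit was 114, and the median of all regions was 102. The strongest region lay above the median of the list for 35 of the 47 ribosomal protein genes (74.5%), against 1637 of the 2819 other protein-coding genes with a summit (58.1%). The same shares were 57.7% against 56.8% in the list of replicate 1 and 63.4% against 54.3% in that of replicate 2. In replicate 1 alone the medians were close, 68.4 for ribosomal protein genes and 68.2 for all protein-coding genes, and in replicate 2 they were 65.9 and 62.6. The higher median of the main list was therefore not matched by a like difference within the list of replicate 1. The large subunit ran from 60.2 to 593 with a median of 127, and the small subunit from 84.8 to 516 with a median of 153, so the subunits overlapped over most of their range.

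RpL32 (FBgn0002626, chr3R:30045229-30046161 in dm6), a large-subunit protein whose transcript often serves as a reference in fly expression studies, had the highest signal, 593 in the main list, with the summit 57 bp upstream of its start. In the ranked lists of the single replicates, which hold regions that did not pass the IDR limit too, its region had 372 in replicate 1 and 211 in replicate 2. RpS2 (FBgn0004867, chr2L:9896265-9897552), a protein of the mRNA entry channel, followed with 516 in the main list, 373 in replicate 1 and 159 in replicate 2, and its summit lay 16 bp upstream. RpL7 (FBgn0005593, chr2L:10201004-10202321) of the large subunit had 401 in the main list, 206 in replicate 1 and 204 in replicate 2, with the summit 23 bp downstream. These were the 3 ribosomal protein genes among the first 100 regions of the main list, at ranks 17, 26 and 64, and 18 of the 47 genes were among the first 500. All protein-coding genes were not counted by rank, so these 2 counts have no background here. The upper quartile of the main signal was 198 for ribosomal protein genes and 167 for all protein-coding genes with a summit.

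RpS29 of the small subunit had 328 in the main list, 163 in replicate 1 and 173 in replicate 2, with the summit 3 bp downstream of a start. RpS30, made as a fusion to a ubiquitin-like protein, had 323, 193 and 117 in the same order of lists, with the summit 29 bp downstream. RpL41, the smallest ribosomal protein, had 308, 163 and 149. Its summit lay 94 bp upstream of RpL41 and 88 bp from the start of NaCP60E, so that this region belongs to a pair of neighbouring starts. RpL36A had 283 in the main list, 183 in replicate 1 and 98.8 in replicate 2, with the summit 4 bp upstream. Within replicate 2 RpS29 stood above RpS2, and within replicate 1 below it.

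Further genes among those with the highest main signal ranged from 183 to 255. RpLP0-like had 255 in the main list, 157 in replicate 1 and 112 in replicate 2, 36 bp upstream of its start. RpL10Ab had 244, 142 and 97.8 in the same order, 43 bp upstream, and RpS24 had 225, 157 and 75.7, 56 bp upstream. These 3 had their summits at their own starts. RpS23 had 201, 150 and 67.9, 36 bp upstream, and RpS7 had 195, 138 and 57.1, 20 bp downstream. RpS19a had 189, 112 and 80.3, with the summit 463 bp upstream of RpS19a and 17 bp from the start of Rok. RpL36 had 183, 130 and 56.8, with the summit 15 bp upstream. Within the list of each replicate, all 7 lay below RpL7.

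**Figure D2:**
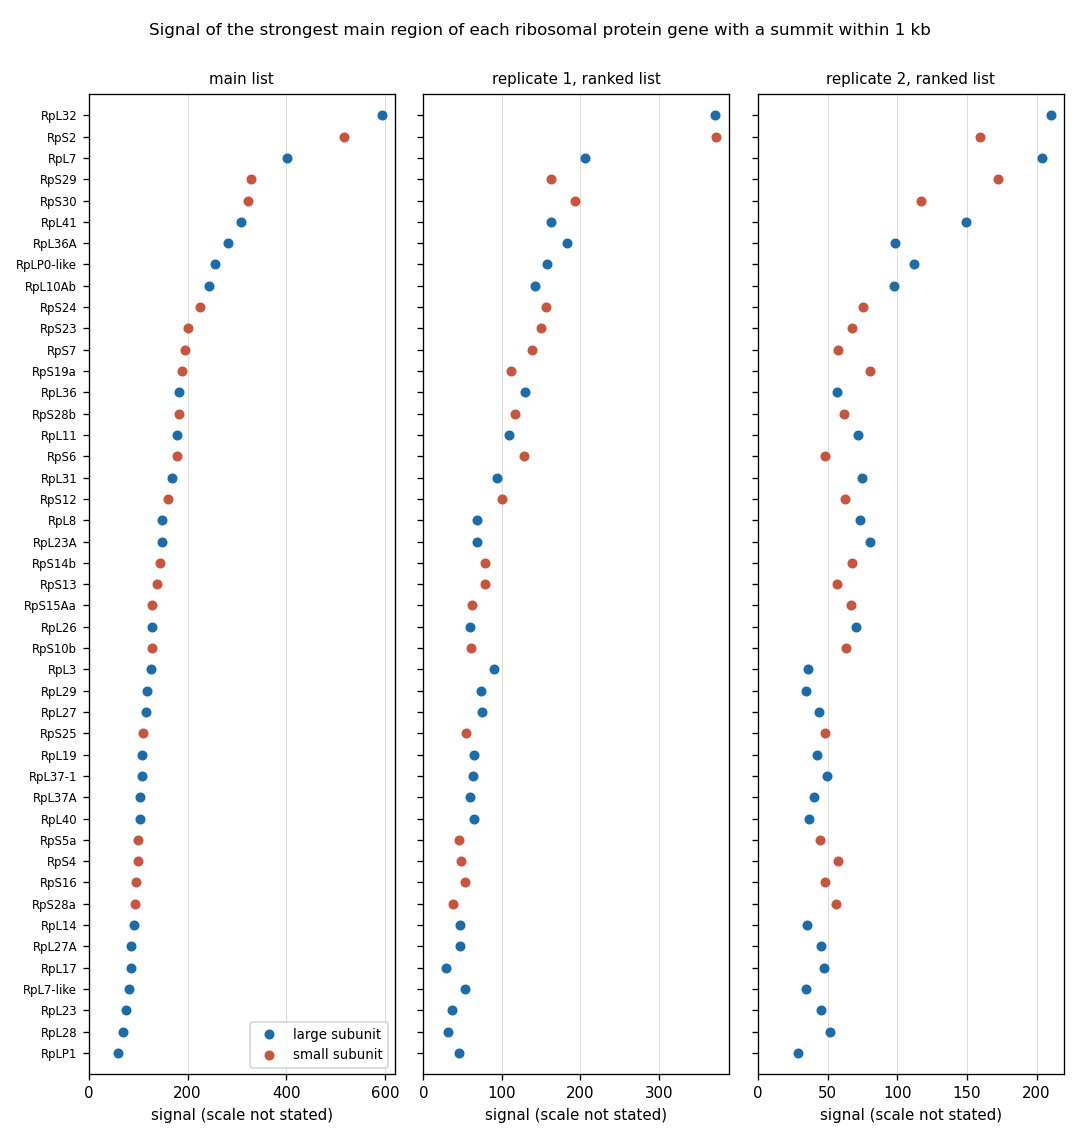
Each row is 1 of 45 genes with a summit in the main list, in order of the main signal, and each panel gives the signal of that region in another list, with the large subunit in blue and the small subunit in red. The signals of the main list run from 60.2 for RpLP1 to 593 for RpL32, and RpL32, RpS2 and RpL7 lead in the left panel, while RpS29 passes RpS2 in replicate 2.

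The order of the regions was compared between the replicates by rank, since the scales of the lists may differ. The rank correlation of the replicates' signals was 0.703 over the 47 genes and 0.576 over 2723 main regions. It is a description, since the regions share the same 2 libraries and were kept because they ranked alike in both.

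Most summits lay just upstream of a start. The strongest summit was upstream of the nearest start of its own gene for 36 of 47 ribosomal protein genes (76.6%), against 74.5% of all protein-coding genes with a summit, with a median position of -43 bp and -45 bp. Its median distance, whatever the side, was 44 bp for ribosomal protein genes and 64 bp for all protein-coding genes. It lay within 100 bp for 34 of 47 (72.3%), against 1741 of 2866 (60.7%), and from 300 to 1000 bp away for 7 of 47 (14.9%), against 706 of 2866 (24.6%). The large subunit had a median position of -43 bp and the small subunit of -40 bp.

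**Figure D3:**
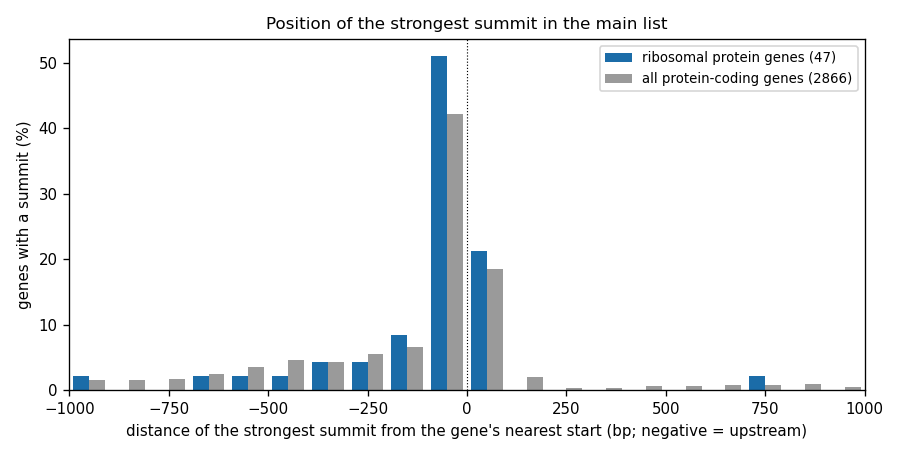
The horizontal axis is the distance of the strongest summit in the main list from the nearest start of the gene, in bins of 100 bp with upstream on the left, and the vertical axis is the percentage of genes with a summit, for ribosomal protein genes (blue, 47) and all protein-coding genes (grey, 2866). The bin just upstream of the start holds 24 of the 47 genes (51.1%) and 42.2% of all protein-coding genes.

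The fly genome is compact, and a summit near a ribosomal protein gene is often near another gene as well. For 33 of the 47 genes (70.2%) the strongest region was also within 1 kb of a start of a protein-coding gene outside the set. For 10 of the 47 (21.3%) that other start was the nearest. The shares of 70.2% and 21.3% were not counted over all protein-coding genes with a summit, so they have no background here. Besides NaCP60E and Rok, the nearest starts included those of msn for RpL8, Ubr3 for RpS14b, CSN8 for RpS13, CG3702 for RpL40, Axn for RpS28a, Nelf-E for RpL14 and JhI-21 for RpL7-like. When each summit counted only for the gene with the nearest start, 39 of the 92 ribosomal protein genes (42.4%) kept one, against 15% of all protein-coding genes.

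Along the chromosomes, the share of ribosomal protein genes with a summit in the main list was 9 of 19 on 2L (47.4%), 12 of 21 on 2R (57.1%) and 8 of 14 on 3L (57.1%). It was 8 of 23 on 3R (34.8%) and 10 of 14 on X (71.4%). Of all protein-coding genes, 19.0% had a summit on 2L, 23.6% on 2R, 19.4% on 3L, 19.6% on 3R and 22.0% on X, so the spread among the arms was wider for the smaller set. RpS3A is the one gene of the set on chromosome 4, where 1 of 80 protein-coding genes (1.25%) had a summit, and it had none. Many ribosomal protein genes carry snoRNA genes, which guide the modification of ribosomal RNA, in their introns. Of the 28 genes with a snoRNA gene inside, 17 had a summit in the main list (60.7%), and of the 64 without, 30 had one (46.9%). Protein-coding hosts of snoRNA genes outside the set had a summit in 27 of 56 cases (48.2%).

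Paralogues are copies of a gene within 1 genome, and by their symbols 27 of the 92 genes fall into 13 families. Of these 27 genes, 12 had a summit in the main list (44.4%), against 35 of the 65 genes without a paralogue in the set (53.8%). Every member had a summit in 1 family, some but not all members in 9, and none in 3. Families of other genes were not counted. How many families a share of 44.4% alone would split was not worked out, so these counts have no background here. The copies of a family can share sequence, and how the authors assigned reads that match several places is not given in the sources used here, so the split between close copies is uncertain.

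RpL7 and RpL7-like were the family with a summit at every member, with a main signal of 401 at RpL7 and 82.4 at RpL7-like. The summit of RpL7-like lay 400 bp upstream of its start and 23 bp from that of JhI-21. RpS28, a small-subunit family of 3 genes, had a signal of 183 at RpS28b and 94.2 at RpS28a. RpS28-like had a summit in replicate 1 only (49.4, 745 bp downstream).

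In the other families with a difference, the gene without a main summit was given by its strongest region in the ranked main list. RpL10Ab, whose promoter is printed above, had 244 in the main list, and its paralogue RpL10Aa had a ranked region of 36.1 at -832 bp. RpL37-1 had 107 and RpL37-2 had 37.2 at 815 bp. RpS5a, the widely used copy of a small-subunit protein, had 101, and RpS5b, known for its use in the ovary, had 33.6 at 70 bp. RpS15Aa had 128 and RpS15Ab 50.3 at -945 bp. RpS19a had 189 at -463 bp, in the region 17 bp from the start of Rok, and RpS19b had 50.6 at -903 bp. None of these 5 second copies had a summit in any thresholded list.

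The remaining split families had calls in other lists. RpLP0-like, whose human counterpart acts in ribosome assembly, had 255, whereas RpLP0, the protein at the base of the ribosomal stalk, had 47.5 in the ranked main list and a summit in the list of replicate 2 only (37.1, 20 bp downstream). RpS10b had 127 in the main list, and RpS10a had 77.4 in the pooled list and 60.3 in replicate 1, at -376 and -391 bp from its start. RpS14b had 145, but at 732 bp downstream of its start and 8 bp from the start of Ubr3, and RpS14a, its tandem neighbour on X, had 68.6 in the pooled list only. In replicate 1 the strongest summit of RpS14b lay instead 33 bp upstream of its start, with a signal of 85.6.

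The families without a main summit were RpL22, RpL24 and RpL34. RpL24, a protein of the bridge between the subunits, had 78.7 in the pooled list and 55.6 in replicate 1, and RpL24-like had 61.8 in the pooled list. RpL34b had 81.6 in the pooled list and 60.2 in replicate 2, and RpL34a had 62.9 in the pooled list, at -859 bp. RpL22 had a ranked region of 66.0 and RpL22-like of 14.0, and neither had a summit in a thresholded list.

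**Figure D4:**
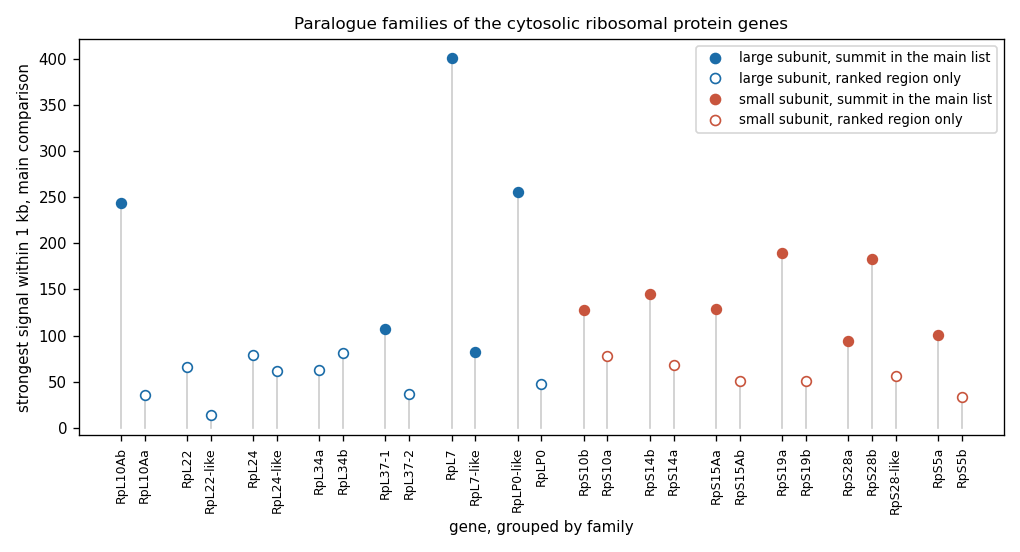
Each point is a gene of 1 of the 13 paralogue families, and the vertical axis is its strongest signal within 1 kb in the main comparison, from the main list where the gene has a summit there (filled) and otherwise from the ranked list (open), with the large subunit in blue and the small subunit in red. RpL7, RpLP0-like and RpL10Ab stand highest at 401, 255 and 244, and their relatives lie at 82.4, 47.5 and 36.1.

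Outside the main list, 17 of the 45 genes without a main summit had one in another list. The same share was not counted over all protein-coding genes. RpL30 had one in each of the other 3, with 88.5 in the pooled list, 37.3 in replicate 1 and 62.0 in replicate 2. RpL6 had 71.5 in the pooled list and 55.8 in replicate 1, and RpS15 had 77.2 and 47.6. RpS20 had 70.0 in the pooled list and 41.7 in replicate 1, at -852 and -908 bp from its start. RpS27A, made as a fusion to ubiquitin, had 68.0 and 58.6 in the same 2 lists. RpS21 had 58.2 in the pooled list at -821 bp from its start and 54.2 in replicate 2 at 978 bp, which are different regions. RpL7A had 46.7 in replicate 1 only, at -932 bp. RpL35A had 59.2 and RpL5, which binds the 5S ribosomal RNA, 49.8 in the pooled list only, at 757 and 755 bp from their starts. In the ranked main list, 16 of these 17 genes had a region, with a -log10 IDR of 0.195 to 1.98, all under the limit of 2 that the thresholded lists keep.

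No thresholded list had a summit within 1 kb of the other 28 genes, a count made for this set alone and so without a background. In the large subunit these were RpL4, RpL9, RpL10, RpL10Aa, RpL12, RpL13, RpL13A, RpL15, RpL18, RpL21, RpL22, RpL22-like, RpL35, RpL37-2, RpL38, RpL39 and RpLP2. In the small subunit they included RpS3, RpS3A, RpS5b, RpS9, RpS15Ab, RpS18, RpS19b, RpS26 and RpS27. The set spans much of the ribosome, from RpS3 at the mRNA entry and RpL10 near the peptidyl transferase centre to the stalk protein RpLP2. In the ranked main list, 24 of the 28 had a region near a start. Their signals ran from 14.0 to 195 with a median of 41.7, and RpL10, RpL21, RpL38 and RpS3A had no region. Some of the 28 lie where the main list had few or no calls. On 3L the last main region ended at 22879007, and RpL10 (from 23093190) and RpL15 (from 27267255) lie beyond that position. RpS3A is on chromosome 4, where 1 of 80 protein-coding genes had a main summit. Whether these genes differ from their neighbours was not tested.

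RpL13A (FBgn0037351, chr3R:5624474-5625947 in dm6) stood apart from the other 27. Its ranked region had a signal of 195 in the main comparison, 158 in replicate 1 and 43.0 in replicate 2, and its -log10 IDR of 3.38 was above the limit of 2, yet no thresholded list held it. The summit lay at -266 bp from its start. The file records name a further parent of the thresholded lists without saying what it removed, and its part in this call was not tested. Of the 40 genes without a main summit that had a ranked region, RpL13A was the 1 gene above the limit.

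With no limit on IDR, 87 of the 92 ribosomal protein genes (94.6%) had a region near a start in the ranked main list, against 12514 of 13945 protein-coding genes (89.7%). The median of the strongest signal was 85.9 for ribosomal protein genes and 44.8 for all protein-coding genes. In the ranked list of replicate 1 the medians were 49.7 and 26.5, and in that of replicate 2 they were 42.5 and 22.5. A ranked region near a start was thus common in the genome, and the median signal of these regions was higher for the ribosomal protein genes in both replicates.

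The polypyrimidine initiator was frequent at the ribosomal protein genes both with and without a summit. It lay at a start of 75 of the 92 genes (81.5%), against 570 of 13945 protein-coding genes (4.09%). Of the 47 genes with a summit in the main list 40 had it (85.1%), and of the 45 without a summit 35 had it (77.8%). Among protein-coding genes outside the set that have the initiator, 135 of 495 (27.3%) had a summit, against 20.6% of all protein-coding genes.

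The DRE, TATCGATA, which reads the same on both strands, was more frequent at the summits of these genes. It lay within 50 bp of the strongest summit of 17 of the 47 genes (36.2%), against 324 of 1962 strongest regions of all protein-coding genes (16.5%) and 345 of 2747 regions of the main list (12.6%). Among the 17, the summits of RpL41, RpS13 and RpS14b lay nearest to the start of another gene. In the pooled list the DRE was at 19 of 60 ribosomal protein genes (31.7%). The shares there were 403 of 2641 strongest regions of all protein-coding genes (15.3%) and 435 of 4022 regions (10.8%). Within 100 bp of the summit in the main list it was found at 20 of 47 genes. The shares were 20.9% of the strongest regions of all protein-coding genes and 16.1% of all regions. At these 20 genes the centre of the nearest DRE lay at a median of 18 bp from the summit, and at 16 of them upstream of the start.

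In the printed stretches, the centre of the DRE was 0.5 bp from the summit at RpL27, 7.5 bp at RpS6, 9.5 bp at RpS25, 30.5 bp at RpL10Ab and 32.5 bp at RpL37-1. The C of the initiator lay 2 to 10 bases after the start in these 5 genes. The summit was nearer to the DRE than to the initiator in 4 of the 5, and nearer to the initiator in RpL37-1. RpL10Aa has neither sequence in its printed stretch.

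The promoter window, from 250 bases before the canonical start to 50 bases from it on, held a DRE in 22 of the 47 genes with a summit (46.8%) and in 6 of the 45 without (13.3%), against 610 of 2865 protein-coding genes with a summit (21.3%) and 1246 of all 13944 (8.94%). Read the other way, 22 of the 28 ribosomal protein genes with a DRE had a summit (78.6%), and 25 of the 64 without a DRE had one (39.1%). Over all protein-coding genes the shares were 610 of 1246 with a DRE (49.0%) and 17.8% without. The genes with a DRE and no main summit were RpL6, RpL24-like, RpL34a, RpL39, RpS14a and RpS15Ab, of which RpL39 and RpS15Ab had none in any thresholded list.

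The signal of the strongest region ran from 107 to 328 with a median of 161 over the 17 genes with a DRE at the summit. Over the 30 genes without one it ran from 60.2 to 593 with a median of 122, so the groups overlapped, and the highest signals were at genes without a DRE. The median over the main list was 140 for 345 regions with a DRE and 98.2 for 2402 without. RpL32 and RpS2, the genes with the highest signal, have no full DRE within 50 bp of the summit but hold 7 of its 8 letters, TATCGAT. This shorter form was chosen after the stretches had been read. Counted on either strand, it is found without the full DRE at RpL32, RpS2, RpS30, RpLP0-like and RpL40, which is 5 of the 30 ribosomal protein genes with no DRE (16.7%), against 16.9% of such strongest regions of all protein-coding genes, a share near the background.

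The other letters were rarer at the summits. The motif 1 core, GGTCACAC on either strand, was within 50 bp of the summit at 5 of 47 genes (10.6%), among them RpL7 and RpLP1 in the printed stretches, against 5.91% of the strongest regions of all protein-coding genes and 4.51% of all main regions. The 6 letters TATAAA were at 5 of 47 (10.6%), against 7.03% of all main regions, and CAGCTG at 2 (4.26%), against 7.24%. GAGAGAG was at none of the 47, against 1.82%. In the promoter window TATAAA was found in 42.6% of the ribosomal protein genes with a summit and 48.9% of those without, against 45.3% of all protein-coding genes. A match is a string of letters and not a measured binding site.

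**Figure D5:**
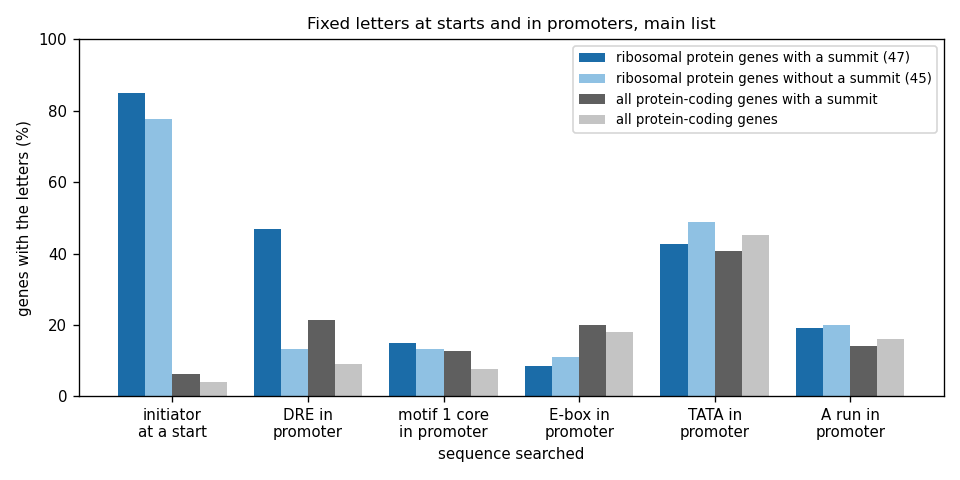
Bars give the percentage of genes with each sequence, at a start for the initiator and in the promoter window for the others, in ribosomal protein genes with a summit (47), those without (45), all protein-coding genes with a summit and all protein-coding genes. The initiator is at 85.1% and 77.8% in the first 2 groups and at 4.09% of all protein-coding genes, and the DRE at 46.8% and 13.3%, against 21.3% of all protein-coding genes with a summit and 8.94% of all protein-coding genes.

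Genes that act with the ribosomal proteins were counted in the same way. Of 29 genes of ribosome assembly and ribosomal RNA synthesis, 15 had a summit in the main list (51.7%), against 20.6% of all protein-coding genes, with a median signal of 115. For some of these 15, as for some ribosomal protein genes, the strongest summit was nearest to the start of another protein-coding gene. The pooled list had a summit near 14 of them (48.3%, against 27.3%), the list of replicate 1 near 11 (37.9%, against 21.9%) and that of replicate 2 near 8 (27.6%, against 12.7%). The list includes sta and Rack1, proteins of the cytosolic small subunit whose symbols do not start with RpS, and both had a summit at their own start, with signals of 122 and 123, 9 and 11 bp upstream. Of 73 mitochondrial ribosomal protein genes, whose products work in a separate ribosome, 25 had a summit in the main list (34.2%, against 20.6% of all protein-coding genes), with a median signal of 117 and a median distance of 141 bp. The cytosolic genes had 51.1%, 139 and 44 bp for the same quantities.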

How the data were processed

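ChIP-seq of CG42726-eGFP was made in 2 biological replicates of whole embryos, and the chromatin was sonicated (size range 200-800 in the labels). The labels number them as biological replicates and say no more about their collection. The signal of each region and the −log10 of its global IDR are deposited columns of the authors' 8 peak lists (a ranked and a thresholded list for each replicate, for the pooled reads and for the comparison of replicates). All lists are in dm6, per the labels. For the aligner and the caller, names and versions were not given in sources used here. A control is named in the file records and was not analysed here. The signals of the main and the pooled list are not independent: 45 of the 46 genes in both had the same value. Columns of the ranked list between replicates could not be tied to a replicate, so replicate values come from each replicate's own lists, by the highest signal among regions that overlap the main region.

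Depth, and with it precision, is unknown, since no counts are in the files. Genes and starts came from Ensembl's annotation of this assembly, and all 92 genes have the same coordinates in RefSeq. Distances are from the summit to the nearest start of the gene, negative upstream. Where a gene had several regions, the one with the highest signal was used. Letters were counted on both strands in the RefSeq genome (dm6), except the initiator, which was read on the strand of the gene. Each motif was counted on its own, also where matches overlapped, as TATAAA can with the DRE or a run of A. Scripts ran in Python with pandas and numpy and were tested on simulated summits and sequences.

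Values are given in full for genes among the 15 with the highest main signal, every gene of a paralogue family and genes called outside the main list. Genes outside the set are named where their start is the nearest to a summit, or, for sta and Rack1, as proteins of the same ribosome, chosen after their values were seen. The genes, lists and sequences were chosen with earlier results of these data known. No test was made. Some genes of the set count in the totals but are not reported here by name. The alternatives were the other lists, other windows, the canonical start only, the nearest start only, any base of the region, higher signal and stricter IDR.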

Additional observations from a re-analysis of the deposited data

How the results depend on the processing

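The count of ribosomal protein genes with a summit stayed within 1.5 times the 47 of the main list in all alternatives but a −log10 IDR above 3, which kept 27 genes (29.3%, against 8.86% of all protein-coding genes), 13 of 54 in the large subunit (24.1%) and 14 of 38 in the small (36.8%). It was 41 and 52 in the replicates' own lists, 45 within 500 bp and 55 within 2 kb, and in each setting the share was above that of all protein-coding genes. That share (20.6%) was 27.31% in the pooled list, 12.74% to 21.91% when either replicate was left out, 18.05% within 500 bp, 24.53% within 2 kb, 18.85% at canonical starts, 15% by nearest start, 11.99% above the median signal and 8.856% at the stricter IDR.

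The median signal (138.6) was 109.7 in the pooled list, 65.88 to 68.41 when either replicate was left out (on those lists' own scale), 128.3 within 500 bp and at canonical starts, 148.2 within 2 kb, 127.6 by nearest start, 133.4 with any base of the region, 178.7 above the median signal and 189.3 at the stricter IDR. The median distance (44 bp) was 58.0 bp in the pooled list and at canonical starts, 47.5 to 50 bp when either replicate was left out, 62.0 bp within 2 kb and 37.0 bp by nearest start. Several of these settings keep fewer or other regions by their construction.

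In alternatives added after the data had been seen, ribosomal protein genes with a DRE in the promoter had a summit in 15 to 25 of 28 cases. Those without had one in 12 to 35 of 64. Both ranges run from the stricter IDR to the pooled list. Genes without a DRE fell from 25 in the main list to 16 above the median signal and 12 at the stricter IDR. Genes with a DRE fell from 22 to 19 and 15. All protein-coding genes were not counted by DRE in these alternatives, so the counts have no background here. No paired analysis was possible because there is 1 group. Depth is unknown, so a gene without a summit is one where none was called.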
